A study of Rattus norvegicus with 12 samples.

Results

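Fos, Fosb, Fosl2, Jun, Junb and Jund encode the core subunits of activator protein 1 (AP-1), a family of paired transcription factors. The 6 genes were taken by symbol from the probes that the array annotation assigns to exactly 1 gene, with the brightest probe kept where a gene had several. In this way 5 of the 6 were measured, among 18166 genes in all; Fosl2 was not analysed here. Jun had 2 probes and the other 4 genes had 1 each.

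AP-1 factors are basic leucine zipper proteins that bind DNA only as pairs. Fos proteins need a Jun partner, whereas Jun proteins can also pair with each other. Fos, Fosb and Junb are immediate early genes, switched on within minutes of synaptic activity or injury through calcium and MAP kinase signals, while Jund is present more steadily. In the auditory brainstem and midbrain, Fos is widely used as a mark of neurons that sound or electrical stimulation has recently driven.

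The tissue was the inferior colliculus (IC), the midbrain auditory centre, of SD rats. In the single-sided deaf groups the right cochlea had been ablated 2 weeks before, and in the control groups rats had had a sham operation behind the ear in which the bulla was not drilled. There were 3 arrays from each of left deaf, right deaf, left control and right control IC, 12 in all. The left IC lies opposite the ablated ear and the right IC on its side. The study names 20 rats for each arm, but the labels used here leave unstated if each array came from 1 rat or several, if same-numbered left and right arrays are of the same rats, and what the age and sex of the rats were. The p-values below reflect array-to-array variation, part of which can be technical. Values are log2 intensities, so a difference of 1 is a doubling of signal, and intensities of different genes' probes cannot be set against each other.

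The series title and sample descriptions name hippocampus, against the IC named in the titles and tissue entries. Among markers of tectal and collicular neurons, the brightest were Slc17a6, a vesicular glutamate transporter gene (9.56 to 9.99 on the 12 arrays), and Tfap2d, a tectal transcription factor gene (9.39 to 9.79). Among hippocampal and cortical markers they were Wfs1 (6.85 to 7.20) and Prox1 (5.93 to 6.47). Of the measured markers, 7 of 11 tectal and collicular and 2 of 9 hippocampal and cortical ones were above the median level of all genes. Probes differ in brightness, so these levels are given as measured and do not settle the tissue. The right control group stood apart from all others on the cerebellar list. On the other lists scored here its range overlapped that of at least 1 other group. The score of a list, the mean of its members' gene-centred log2 values, was -0.21 to -0.15 for the 12 cerebellar markers in right deaf arrays, against 0.11 to 0.59 in right control arrays, and it was below 0 on all 6 left arrays. The hippocampal and cortical score was -0.11 to 0.071 in right deaf and 0.061 to 0.28 in right control arrays, and -0.11 to -0.0026 in left deaf and -0.11 to -0.027 in left control arrays. The microglial score was -0.14 to 0.095 in right deaf and 0.076 to 0.15 in right control arrays, and that of choroid plexus and ependyma -0.022 to 0.059 in right deaf and -0.16 to -0.051 in right control arrays. In left deaf and left control arrays the microglial score was -0.128 to 0.0318 and -0.196 to 0.0485. That of choroid plexus and ependyma was -0.141 to 0.122 and 0.0175 to 0.122 there. All comparisons with the right control group below carry these shifts, whose part in them was not tested. The meningeal score differed most within groups, at -0.68 to 0.51 in right deaf arrays and up to 0.75 on left deaf array 2. All 11 meningeal markers had higher means in left deaf than in left control IC (median change 0.379, against -0.00508 for all genes). In deaf rats, 10 of 11 were higher in left than in right IC (median 0.264) and 1 was lower. None of these differences had an unadjusted limma p under 0.05. The part of this list in comparisons with left deaf IC was not tested.

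No difference of the 5 measured genes between deaf and control IC passed the test. In the left IC 3 had higher and 2 lower means in deaf arrays, and in the right IC likewise 3 and 2; with the mean of its probes Jun was lower on both sides, and with array weights Fosb and Jund changed sign on the right. Leaving out 1 array turned the sign of Fos, Jun, Junb or Jund on the left and of Fosb or Jund on the right. With limma, 0 of 5 passed an adjusted p of 0.05 on either side or as the mean of both sides, where 0% of the 18166 genes did in each of the 3 comparisons. At an unadjusted p under 0.05 the count was also 0 of 5, where the share of all genes was 3.69% on the left, 4.31% on the right and 4.53% for the mean of both sides. Arrays of deaf and control rats did not overlap for 0 of the 5 genes in the left IC, against 10.3% of all genes, and for 1 of the 5 in the right IC, against 7.48%. In bulk tissue of this kind, fewer cells of a type and less RNA per cell cannot be told apart.

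**Figure D1:**
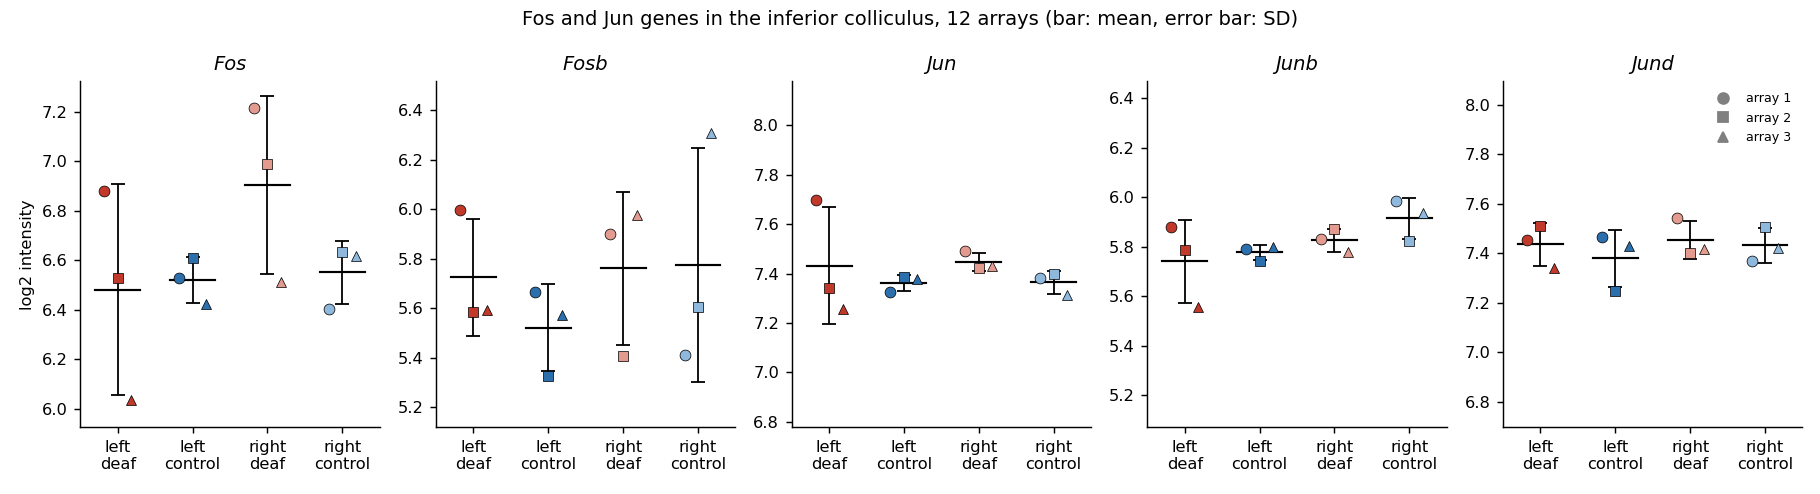
Each panel shows 1 gene, with log2 intensity on the vertical axis (all panels span 1.4 log2 units) and the 4 groups along the horizontal axis. Points are arrays, with a symbol for each array number, lines are group means and error bars are SD (n = 3). The deaf arrays of Fos run from 6.04 to 7.21 and enclose the 6 control arrays at 6.40 to 6.63.

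Fos, the subunit best known as an activity mark, was the most spread of the family in deaf tissue. Its log2 intensity was 6.88, 6.53 and 6.04 on left deaf arrays 1 to 3, against 6.53, 6.61 and 6.42 on left control arrays. The left deaf arrays lay on both sides of the controls, with means of 6.48 ± 0.42 in left deaf and 6.52 ± 0.092 in left control IC (SD, n = 3 each). The difference was -0.04 (SE 0.20, 95% interval -0.48 to 0.41, limma adjusted p = 1.00), and it was -0.24 without left deaf 1 and 0.19 without left deaf 3.

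In the right IC, Fos stood at 7.21, 6.99 and 6.51 on the deaf arrays, against 6.40, 6.63 and 6.62 on the controls. Right deaf arrays 1 and 2 were above every control array, and right deaf 3 lay among them. The means were 6.90 ± 0.36 in right deaf and 6.55 ± 0.13 in right control IC, a difference of 0.35 (SE 0.20, 95% interval -0.09 to 0.80, unadjusted p = 0.110, limma adjusted p = 1.00). This interval runs from 0.938-fold to 1.74-fold, so rises of up to that size lie within it. Without right deaf 1 the difference was 0.20, and without right deaf 3 it was 0.55 (unadjusted p = 0.0183, limma adjusted p = 1.00).

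Ordered by group mean, Fos ran from right deaf through right control and left control to left deaf, and neighbouring groups differed by less than the larger of their SDs. Right deaf exceeded left deaf most, with a left minus right difference in deaf rats of -0.42 (SE 0.20, unadjusted p = 0.0618, limma adjusted p = 1.00), against -0.03 in control rats (SE 0.20, adjusted p = 0.994). The side by deafness interaction, the left change minus the right change, was -0.39 (SE 0.29, unadjusted p = 0.202, limma adjusted p = 1.00). Its unadjusted limma p was 0.0485 without left deaf 1 and 0.0496 without right deaf 3. Without left deaf 3 the interaction was -0.17.

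Fosb encodes a Fos relative whose shortened form ΔFosB is long-lived and builds up with repeated stimulation; the probe values do not separate the forms. It read 5.999, 5.59 and 5.59 on left deaf arrays, against 5.67, 5.33 and 5.57 on left controls, and the groups overlapped narrowly. The left difference was 0.20 (SE 0.22, 95% interval -0.28 to 0.69, limma adjusted p = 1.00), and 0.067 without left deaf 1. In the right IC it read 5.90, 5.41 and 5.98 on deaf arrays, against 5.41, 5.61 and 6.31 on controls.

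The right difference of Fosb was -0.01 (SE 0.22, limma adjusted p = 1.00). Right control 3, its highest array of the 12, was also the array with the highest cerebellar score, 0.59, and that tissue's part in the value was not tested. Without right control 3 the right difference was 0.25. The group means, 5.73 in left deaf, 5.76 in right deaf, 5.52 in left control and 5.78 in right control, all lay within 1 SD of right control, whose SD was 0.47.

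Jun encodes the Jun subunit that JNK kinases activate and that neurons raise after axon damage. Its brighter probe gave 7.70, 7.34 and 7.26 on left deaf arrays, against 7.33, 7.38 and 7.38 on left controls. Left deaf 1 stood alone above all others, and the remaining left deaf arrays fell within or below the controls. The left difference was 0.07 (SE 0.10, limma adjusted p = 1.00), and -0.06 without left deaf 1.

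In the right IC, Jun gave 7.49, 7.42 and 7.43 on deaf arrays, against 7.38, 7.40 and 7.31 on controls. All 3 right deaf arrays were above all 3 controls, the only gene of the 5 for which this held in either IC, though by a difference of just 0.08 (SE 0.10, 95% interval -0.14 to 0.31, unadjusted p = 0.438, limma adjusted p = 1.00). The dimmer Jun probe went the other way. It gave 5.31, 5.44 and 5.78 on right deaf arrays, against 5.37, 5.60 and 5.81 on right controls, with differences of -0.09 on the right and -0.15 on the left (SE 0.15 each, limma adjusted p = 1.00).

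**Figure D2:**
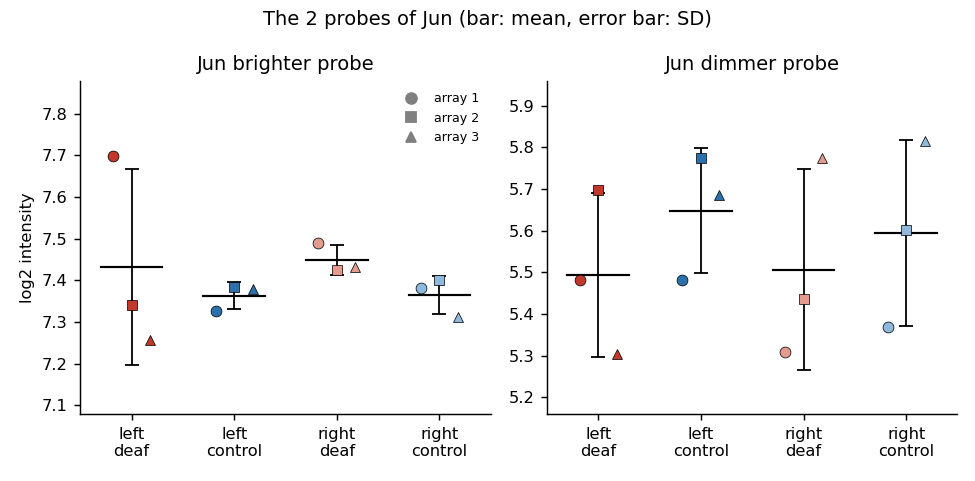
The 2 probes of Jun are plotted by group, with log2 intensity on the vertical axes (each spans 0.8 log2 units), arrays as points, group means as lines and SD as error bars (n = 3). The brighter probe shows left deaf 1 at 7.70 and right deaf arrays just above right controls, whereas on the dimmer probe the deaf means lie below the control means on both sides.

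Junb encodes an inducible Jun relative that is a weaker activator than Jun and can restrain it. It was at 5.88, 5.79 and 5.56 on left deaf arrays, against 5.79, 5.74 and 5.80 on left controls, and at 5.83, 5.87 and 5.78 on right deaf arrays, against 5.98, 5.82 and 5.94 on right controls. Both pairs of groups overlapped. The differences were -0.04 on the left (95% interval -0.24 to 0.16) and -0.09 on the right (-0.29 to 0.11), with SE 0.092 and a limma adjusted p of 1.00 each.

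Jund, the most steadily expressed Jun relative, gave 7.46, 7.51 and 7.34 on left deaf arrays, against 7.46, 7.25 and 7.43 on left controls, and 7.54, 7.40 and 7.42 on right deaf arrays, against 7.37, 7.51 and 7.42 on right controls. It had the smallest range of the 5 genes, 0.296 over the 12 arrays, with overlap on both sides. Its differences were 0.06 on the left (95% interval -0.14 to 0.25) and 0.02 on the right (-0.17 to 0.21), with SE 0.088 and a limma adjusted p of 1.00 each.

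The start regions of Junb and Jund are printed because these relatives differ in how inducible they are known to be, and neither passed the test here. Each line is a RefSeq window on GRCr8, 250 bases before to 50 after the annotated start, with motif matches in capitals. The Junb window is chr19:40080876-40081175 on the plus strand and the Jund window chr16:18769722-18770021 on the minus strand.
Junb: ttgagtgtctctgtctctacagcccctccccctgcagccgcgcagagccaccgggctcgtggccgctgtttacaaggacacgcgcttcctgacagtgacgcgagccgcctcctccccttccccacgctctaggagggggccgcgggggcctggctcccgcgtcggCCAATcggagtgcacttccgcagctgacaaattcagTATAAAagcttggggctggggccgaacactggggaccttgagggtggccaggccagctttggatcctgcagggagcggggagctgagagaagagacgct
Jund: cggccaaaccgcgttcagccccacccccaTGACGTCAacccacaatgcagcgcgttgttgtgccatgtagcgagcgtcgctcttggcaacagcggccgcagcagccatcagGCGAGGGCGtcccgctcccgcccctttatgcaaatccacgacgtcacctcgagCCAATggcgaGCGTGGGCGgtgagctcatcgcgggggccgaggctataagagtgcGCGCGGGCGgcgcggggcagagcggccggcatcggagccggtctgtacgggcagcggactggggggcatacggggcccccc

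The motifs were searched on both strands, and no matches overlapped in either window. Junb held CCAAT, 85 bases before the start, and the TATA box TATAAA, 49 bases before it. Jund held the cAMP response element (CRE) TGACGTCA, 221 bases before the start, CCAAT, 86 bases before it, and the Egr motif GCGNGGGCG at 139, 76 and 31 bases before it. Among 33469 rat windows of the same length, 1.83% held the CRE, 37.5% CCAAT, 14.2% TATAAA and 4.98% the Egr motif. The AP-1 motif TGANTCA (7.33% of windows) and the CArG box that serum response factor binds (1.64%) had no match in either window. A match is only a match of letters, and no binding was measured.

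**Figure D3:**
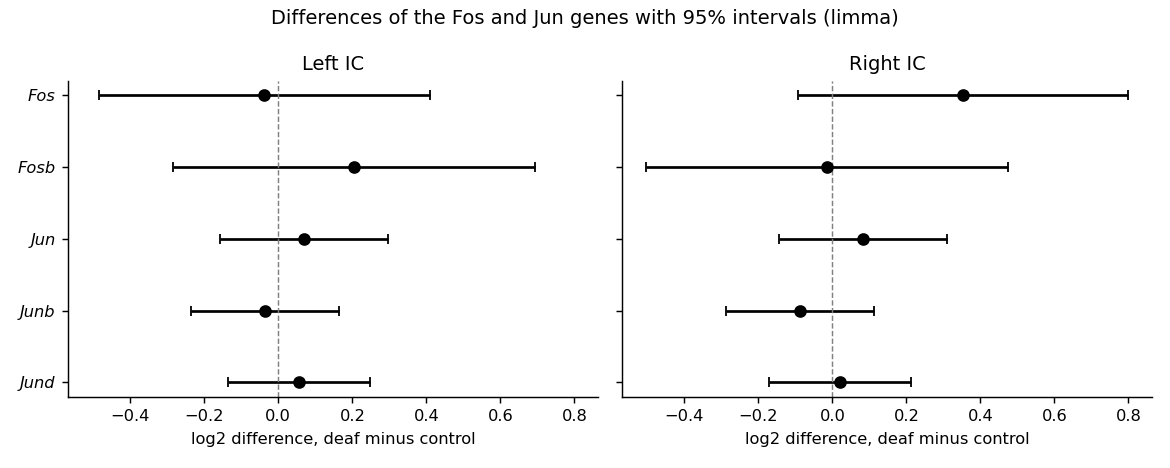
Log2 differences, deaf minus control, are on the horizontal axes for the left and the right IC, with 1 row per gene. Points are limma estimates and bars their 95% intervals (n = 3 arrays per group). All 10 intervals include 0, and those of Fos and Fosb are the widest.

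Between the sides, all 5 genes had lower means in left than in right IC, in control rats and in deaf rats alike, except that Jun was higher in left control IC by the mean of its probes (0.025). Leaving out 1 array turned the direction of Fos, Fosb, Jun or Jund in control rats and of Fosb, Jun, Junb or Jund in deaf rats. In control rats 0 of 5 passed with limma (0% of all genes) and 0 of 5 had an unadjusted p under 0.05 (4.95% of all genes). Left and right control arrays did not overlap for 1 of 5, Junb at 5.78 ± 0.032 in left and 5.92 ± 0.083 in right control IC (a difference of -0.14, SE 0.092, limma adjusted p = 0.934), against 9.80% of all genes. In deaf rats the counts were 0 of 5 by adjusted p (0% of all genes), 0 of 5 by unadjusted p (3.34%) and 0 of 5 without overlap (8.31%). For Fos the limma adjusted p was 1.00 in every alternative, but its unadjusted p was 0.0464 among genes above the median level, 0.0400 under a variance trend with robust estimation, 0.0368 under a replicate block and 0.0277 under array weights. It was 0.00966 without left deaf 1 and 0.00989 without right deaf 3, but 0.305 without left deaf 3. In the main fit it was 0.0618, and with a random replicate block 0.0547. It was 0.123 with only the groups compared, 0.239 without right deaf 1, 0.137 without right deaf 2 and 0.0891 without left deaf 2 (limma). For the interaction the counts were 0 of 5 by adjusted p (0%) and 0 of 5 by unadjusted p (3.42%). The 2 left minus right comparisons share no arrays with each other, but each shares its arrays with the deaf minus control comparisons.

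Fos was more spread between deaf than between control arrays. Its SD, pooled over the 2 sides, was 0.393 in deaf and 0.111 in control arrays, a ratio of 3.53. In all, 1.66% of 18165 genes had a ratio as large, and the median ratio was 0.955. This was looked for after the values had been seen, and it was not tested. Leaving out 1 array at a time, the ratio of Fos was 2.93 to 5.20.

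Jun had a ratio of 4.19 (SD 0.168 in deaf and 0.0401 in control arrays), matched by 0.875% of genes, but it was 1.13 without left deaf 1, and 1.16 on the dimmer probe. Junb had a ratio of 1.95, which was 0.851 without left deaf 3 and 3.8 without right control 2. Fosb had a ratio of 0.772, and 1.69 without right control 3. Jund had a ratio of 0.864, and 1.40 without left control 2.

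**Figure D4:**
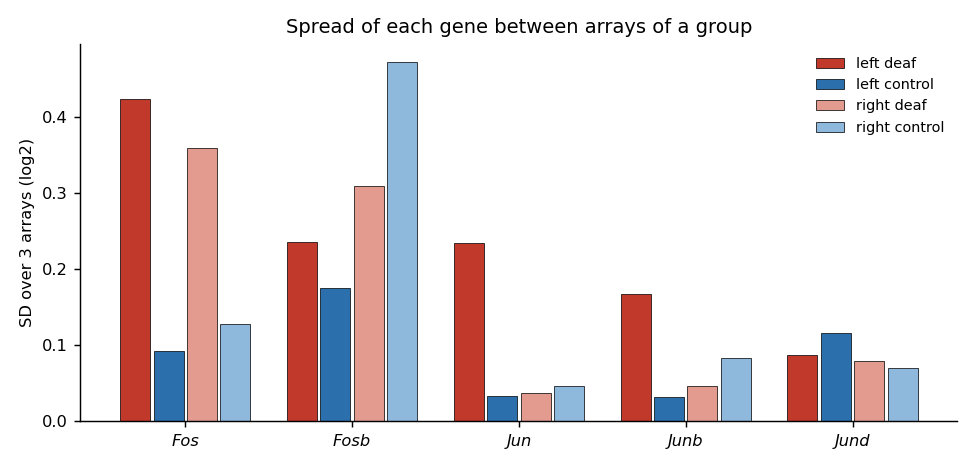
Bars give the SD over the 3 arrays of each group, in log2 units from 0, for the 5 genes. For Fos the bars of left and right deaf IC (0.424 and 0.359) stand above those of left and right control IC (0.0922 and 0.128), and for Fosb the highest bar is right control (0.473).

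The same arrays were high or low for several early genes. Nr4a1, an orphan nuclear receptor induced by activity, was at 7.30 on left deaf 1 and 7.33 on right deaf 1, the arrays where Jun and Fos peaked, and at 6.52 on left deaf 3, where Fos, Jun and Junb had their lowest value. The other 9 arrays held Nr4a1 between 6.69 and 6.94. Npas4, an activity-dependent neuronal factor, was at 6.25 on left deaf 1 and 6.77 on right deaf 1 and between 5.63 and 6.03 on the other 10 arrays. Their ratios of deaf to control spread were 4.65 for Nr4a1, reached by 0.578% of genes, and 2.47 for Npas4, reached by 5.41%. For Egr1, another early factor, the ratio was 1.57, reached by 18.9%. Ratios of the remaining early factors were not read, and single arrays were not left out for these genes.

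Over the 12 arrays, Fos correlated with Nr4a1 at Pearson's r = 0.839 (rho 0.720), rank 5 of 18164 genes, and with Npas4 at r = 0.801 (rho 0.643), rank 10. Without left deaf 3 and right deaf 1, the arrays farthest from the median of Fos, r was 0.578 and 0.529. With values centred within each group r was 0.838 and 0.742. Egr1, a zinc finger early factor, had r = 0.619 with Fos, 0.369 when centred and 0.176 without those 2 arrays. Of the 19 early factors measured, 15 had a positive r with Fos (median 0.199), against 49.0% of all genes, and 4 had an r over 0.5, against 3.99% of all genes. These are descriptions, since the genes were compared with earlier results known and all share the same arrays.

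**Figure D5:**
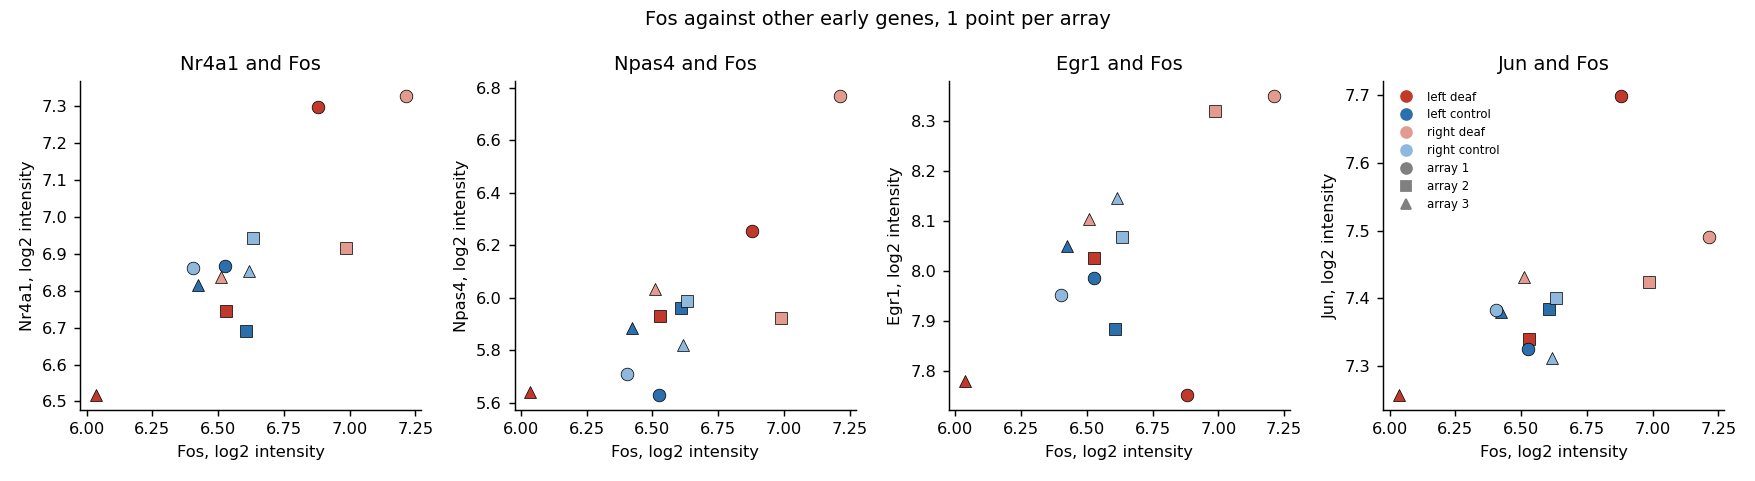
Each point is 1 of the 12 arrays, with the log2 intensity of Fos on the horizontal axes and that of Nr4a1, Npas4, Egr1 or Jun on the vertical axes. Colour gives the group and symbol the array number. Left deaf 1 and right deaf 1 lie at the top for Nr4a1 and Npas4, left deaf 3 lies at the lower left of all 4 panels, and for Egr1 left deaf 1 is low (7.75).

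Within the family, Fos and Jun were the closest pair among the 10 tested, with Jun read from its brighter probe. Their Pearson's r was 0.649 (permutation p = 0.0304, adjusted 0.304 over 10 pairs) and Spearman's rho 0.615 (permutation p = 0.0376, adjusted 0.376). Pearson's r was 0.567 without the 2 arrays farthest from the median of Fos, and 0.691 when centred within groups. The permutations shuffled arrays across the 4 groups as if independent, whereas left and right arrays may share rats. Jun, by the brighter probe, was at rank 149 of 18164 genes by r with Fos. For the dimmer Jun probe, whose deaf minus control differences went the other way, r with Fos was not computed. The other 9 pairs had r between 0.228 (Fos with Fosb, permutation p = 0.476) and 0.487 (Fos with Junb, permutation p = 0.108), so all 10 were positive over the 12 arrays, while none passed the adjusted threshold. Without the 2 arrays farthest from the median of the first gene named, Fosb with Junb was at -0.15 and Jun with Junb at -0.118. Without those farthest from the median of Junb, the same pairs were at 0.633 and 0.234. Fosb with Jun was at -0.0242 without left deaf 1. Without left deaf 1, Fos with Jun did pass the adjusted threshold (r = 0.792, permutation p = 0.00473, adjusted 0.0473). Without left deaf 3 and right deaf 1, r was 0.113 for Fos with Junb and 0.0186 for Fos with Jund, whose r over all 12 arrays was 0.449. Leaving out the 2 arrays farthest from the median of Junb or of Jund instead gave 0.404 and 0.412.

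By the rule fixed for likeness, the 3 genes above the median level with the highest r were, for Fos, the RNA helicase gene Ddx47 (0.938), the calpain protease gene Capn1 (0.878) and Nr4a1. For Jun they were Otof (0.892), which encodes otoferlin, Ccdc93 (0.880) and Tnks1bp1 (0.873). For Junb they were Emd (0.922), which encodes the nuclear membrane protein emerin, the co-chaperone gene Bag3 (0.884) and the non-muscle myosin gene Myh9 (0.847). Those of Fosb were Fbxl15 (0.948), Rfx1 (0.906) and Slc29a3 (0.902), and those of Jund Dnajc4 (0.879), the Wnt receptor gene Fzd4 (0.864) and the syndecan gene Sdc1 (0.859). For Fos, Jun and Jund 9008 genes were searched, and for Fosb and Junb 9009, so high values of r over 12 arrays occur often: an r over 0.5 was reached by 3.99% of all genes with Fos, 4.42% with Junb, 5.91% with Jun, 6.30% with Jund and 11.7% with Fosb.

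Partners, inducers and targets of AP-1 were taken as fixed lists, and 0 genes of the 6 lists passed the adjusted threshold with limma in any comparison. Among other AP-1 partners and related zipper factors, at an unadjusted p under 0.05, 3 of 21 were higher and 0 lower in the left deaf IC, where 1.70% of all genes were higher and 1.99% lower, and 1 was higher and 1 lower in the right, where 2.12% of all genes were higher and 2.19% lower. The median change was 0.042 on the left, where that of all genes was -0.0051, and 0.0018 on the right, where it was 0.0014. On the left Creb5, a CRE-binding relative of Atf2, read 7.16, 7.37 and 7.06 in deaf and 6.95, 6.78 and 7.04 in control arrays (0.27, SE 0.11, limma adjusted p = 1.00). On the right Jdp2, a repressor that pairs with Jun, read 6.58, 6.32 and 6.29 in deaf and 6.17, 6.08 and 6.12 in control arrays (0.27, SE 0.094, adjusted p = 1.00). The large Maf factor gene Mafa was at -0.44 there (SE 0.14) and Atf4, the integrated stress response factor, at -0.12 on the left (SE 0.081). The arrays of all 4 did not overlap, but these genes were named for their small p, and the same held for 10.3% of all genes on the left and 7.48% on the right.

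Among the 24 measured kinases and factors upstream, 0 passed that unadjusted p on the right (2.12% of all genes higher and 2.19% lower). On the left 1 was higher and 0 lower (1.70% and 1.99% of all genes). The one was Elk1, a partner of serum response factor at the Fos gene, with 8.17, 7.93 and 7.95 in left deaf and 7.60, 7.76 and 7.73 in left control arrays (0.32, SE 0.11, unadjusted p = 0.0109, limma adjusted p = 1.00). Elk3 was at -0.18 on the left (SE 0.14). Mapk8, which encodes the Jun kinase JNK1, was 0.21 higher in right deaf IC (SE 0.11), with arrays that did not overlap, and Rps6ka3 was at -0.13 (SE 0.094). Those of Elk1 on the left did not overlap either. These genes were named for their small p, and arrays did not overlap for 10.3% of all genes on the left and 7.48% on the right. The median changes were 0.0156 on the left and 0.0053 on the right, against -0.0051 and 0.0014 for all genes.

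Of the 16 feedback regulators of MAP kinase signalling, 0 on the left (1.70% of all genes) and 1 on the right (2.12%) were higher at that p, and 0 lower (1.99% and 2.19%). The one was Dusp2, a MAP kinase phosphatase gene, at 0.30 (SE 0.12) with overlapping arrays. Zfp36, which encodes an mRNA-destabilising protein, was at 0.21 on the left (SE 0.14) and Spry1 at -0.08 on the right (SE 0.12). Spred2 was at -0.14 on the left (SE 0.082), with arrays that did not overlap, as for 10.3% of all genes there. Median changes were 0.035 on the left and 0.034 on the right, against -0.0051 and 0.0014 for all genes.

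The 19 other inducible early factors had 0 below that p in either IC, against 3.69% of all genes on the left and 4.31% on the right. Of the 19, 2 also stand in the list of AP-1 partners. Means of these factors were higher in 9 of 19 in the left and 15 of 19 in the right deaf IC. The median changes were -0.0148 and 0.0697, against -0.0051 and 0.0014 for all genes. The 19 share the same arrays, and the right comparison carries the marker shifts of the right control group. Atf3, a stress and injury factor that pairs with Jun, read 5.89, 5.41 and 5.40 in left deaf and 5.08, 5.28 and 4.93 in left control arrays, a difference of 0.47 (SE 0.23, unadjusted p = 0.0632, limma adjusted p = 1.00) without overlap. It was named for its small p, and arrays did not overlap for 10.3% of all genes on the left. Nr4a3 was at 0.31 on the right (SE 0.16), Egr2 at -0.29 on the left (SE 0.16) and Csrnp1 at -0.20 on the right (SE 0.12).

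Of 18 measured genes described as AP-1 targets, 0 were higher and 3 lower in the left deaf IC at an unadjusted p under 0.05, where 1.70% of all genes were higher and 1.99% lower, and 0 either way in the right. Itga7, an integrin subunit that regrowing axons use, had 5.15, 5.29 and 5.37 in left deaf and 5.68, 5.68 and 5.66 in left control arrays (-0.40, SE 0.085, limma adjusted p = 0.899), with no overlap. The intermediate filament gene Vim was at 0.22 on the left (SE 0.25), the hyaluronan receptor gene Cd44 at 0.16 on the right (SE 0.12) and Hmox1, a haem oxygenase gene, at -0.14 on the right (SE 0.086). The arrays of Hmox1 did not overlap either. These genes were named for their small p, and arrays did not overlap for 10.3% of all genes on the left and 7.48% on the right. The list's median change was -0.036 on the left and 0.0435 on the right, against -0.0051 and 0.0014 for all genes.

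Heat shock and cell stress genes, which handling of tissue can raise, had 0 of 9 measured members below that p on either side. Among all genes 3.69% were below it on the left and 4.31% on the right. The list's score was -0.026 to 0.074 in left deaf against -0.00034 to 0.026 in left control arrays, and -0.010 to 0.065 in right deaf against -0.086 to -0.023 in right control arrays. It was 0.0738 on left deaf 1 and 0.0057 on right deaf 1, the arrays with the highest Jun and Fos; its part in those values was not tested. Hsph1 was at 0.14 on the left (SE 0.082), Gadd45b at -0.11 on the left (SE 0.086), Ddit4 at 0.22 on the right (SE 0.099) and Gadd45g at -0.06 on the right (SE 0.10). None of these 4 passed with limma (adjusted p = 1.00 each).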

How the data were processed

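Per the labels' protocols, total RNA was extracted with Trizol, and single-stranded cDNA was fragmented, biotin-labelled and hybridised to 1-colour Affymetrix arrays. The deposited values are log2 intensities, 1 per probe and array. The labels used here do not name the software that made them. The arrays share nearly 1 distribution (median 5.34 on each), as quantile normalization gives. The number of arrays limits precision.

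Of 29489 probes, 18511 had 1 gene symbol in the platform annotation, 575 several and 10403 none. The brightest probe per symbol by mean over 12 arrays gave 18166 genes, dim ones included.

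limma 3.58.1 (R 4.3.3) fitted 4 group means to all genes and arrays, with 6 contrasts, two-sided tests and Benjamini-Hochberg adjustment over all genes. With 3 arrays against 3, an exact permutation p cannot go below 0.1. Correlations between genes used 100000 permutations of arrays (numpy 2.4.6). The fit was tested on simulated data. The members, lists and tests were chosen with earlier results of these data known. Named genes were the members, the gene of smallest p in each direction per list and side, the 3 genes most like each member, and the 2 brightest genes of the marker lists described.

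Alternatives covered normalization, dim genes, probe choice, moderation, array weights, groups in the fit, replicate blocks and leaving out each array. Promoter windows are from RefSeq, GRCr8. Fosl2 was not analysed here.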

Additional observations from a re-analysis of the deposited data

How the results depend on the processing

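Counts of the 5 genes, and of genes of the lists, past the adjusted threshold stayed at 0 in each of the 6 comparisons under every alternative run, and the smallest limma adjusted p of a Fos or Jun gene under any of them was 0.548. Of the single-gene differences, 241 of 248 kept their direction under the other settings and 324 of 360 with 1 array left out; the sign changes are given here, and the cause was not tested. With the mean of a gene's probes, Jun was at -0.042 in left and -0.0022 in right deaf minus control, at -0.022 as the mean of both sides, and at 0.025 in left minus right control. With array weights, Fosb was at 0.087 and Jund at -0.00043 in right deaf minus control, and the Junb interaction was -0.0094. Without the 2 arrays farthest from the median of the first gene named, r was -0.15 for Fosb with Junb and -0.118 for Jun with Junb. By the median of Junb instead, these were 0.633 and 0.234. With 1 array left out, the left deaf minus control difference ranged from -0.24 to 0.19 for Fos, -0.064 to 0.16 for Jun, -0.11 to 0.056 for Junb and -0.010 to 0.10 for Jund. That of right deaf minus control ranged from -0.20 to 0.25 for Fosb and -0.023 to 0.059 for Jund. Left minus right control ranged from -0.10 to 0.017 for Fos, -0.43 to 0.015 for Fosb, -0.029 to 0.017 for Jun and -0.094 to 0.014 for Jund. Left minus right deaf ranged from -0.21 to 0.074 for Fosb, -0.15 to 0.071 for Jun, -0.16 to 0.0066 for Junb and -0.055 to 0.030 for Jund. The interaction ranged from -0.050 to 0.40 for Fosb, -0.15 to 0.073 for Jun, -0.017 to 0.14 for Junb and -0.032 to 0.081 for Jund. The correlation of Fosb with Jun ranged from -0.0242 to 0.591 and that of Fosb with Junb from -0.000386 to 0.473. The number of pairs past the adjusted threshold was 0 to 1, the 1 being Fos with Jun without left deaf 1. The setting of genes above the median level leaves out Fosb and Junb, and fitting only the groups compared gives no value for the mean of both sides or the interaction. With 3 arrays a group, array number limits the precision.

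The labels number the arrays 1 to 3 in each group, and do not say whether a number marks the same rats. The numbers were therefore not taken as pairs. Deviations of same-numbered arrays correlated at -0.0558 to 0.149 between left and right deaf, -0.0132 to 0.103 between left and right control, -0.0988 to -0.00702 between left deaf and left control and -0.13 to 0.159 between right deaf and right control. With 3 arrays a group, these values cannot show whether a number marks the same rats, so left and right arrays may not be independent. With the replicate number as a block, 0 of the 5 genes passed in each comparison; the right deaf minus control difference of Fos was 0.35 with SE 0.175 (unadjusted p = 0.0712, limma), and its left minus right difference in deaf rats was -0.42 (unadjusted p = 0.0368, limma adjusted p = 1.00). The number of arrays that correlated best with their own number was 2, 4, 0 and 2 of 6 in these 4 pairs of groups. A random block of arm and number had a consensus correlation of 0.0363 and also gave 0 calls.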
